A study of Mus musculus with 15 samples.

Results

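Expression of 10 heat shock genes was followed across 15 mouse RNA-seq libraries: Hspa1a and Hspa1b (inducible HSP70), Hspa8 (constitutive HSP70), Hsph1 (HSP110), Hsp90aa1 and Hsp90ab1 (cytosolic HSP90), Dnajb1 (an HSP40 J protein), Hspd1 and Hspe1 (HSP60 and HSP10) and Hsf1 (heat shock factor 1). The genes were picked by symbol, though with earlier results of these data known, and all 10 were found among the 51912 gene rows of the count table. Hspa1a and Hspa1b lie close together and share 1517 stretches of 76 bases, the read length, which is 52.5% of all such stretches in Hspa1a and 55.6% in Hspa1b. Their counts were therefore summed into a single row, called Hspa1 here, which leaves 9 rows. The list was handed over as cytosolic, but the products of Hspd1 and Hspe1 form the chaperonin of the mitochondrial matrix and Hsf1 encodes a transcription factor.

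All libraries came from wild-type B cells labelled as untreated, in 5 groups of 3 biological replicates. The D6 group is the unsorted culture after 6 days on 40LB feeder cells, a fibroblast line that carries B cell survival and CD40 signals, with IL-4 at 100 ng/ml. The other 4 groups were moved off the feeder into medium with no stimulus for 2 more days and sorted at day 8 into IgE iGC, IgG1 iGC, IgE PC and IgG1 PC cells. Day, feeder contact, stimulation and sorting all change together between D6 and the day 8 groups, so their parts in any difference cannot be told apart. The labels do not say whether replicates came from separate animals, and p-values measure the spread between these libraries.

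Heat shock proteins are chaperones that bind unfolded or unstable proteins. HSP70 binds exposed hydrophobic stretches in cycles driven by ATP, J proteins such as Dnajb1 deliver the substrates and stimulate the ATPase, HSP110 exchanges the nucleotide, and HSP90 finishes the folding of kinases, steroid receptors and other clients. Heat or other proteotoxic stress frees Hsf1 from chaperones, and the Hsf1 trimer binds heat shock elements, arrays of the inverted unit GAA, in the promoters of Hspa1a, Hspa1b, Hsph1, Dnajb1, Hspd1, Hspe1 and the inducible HSP90 gene Hsp90aa1. Hspa8 and Hsp90ab1 are transcribed at a high level in unstressed, growing cells.

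Promoter windows from RefSeq (GRCm38.p6, 250 bases before to 50 after the start site) were available for 6 of the 10 genes. The 250 bases upstream of Hspa1a and Hspa1b are printed because they show how alike the 2 copies are, and the shorter stretches because they hold the longest runs of heat shock element letters among the windows; capitals mark those letters and every sequence reads 5′ to 3′ on the strand of its gene. The Hspa1a stretch is chr17:34972157-34972406 on the minus strand and the Hspa1b stretch is chr17:34959239-34959488 on the minus strand.
Hspa1a: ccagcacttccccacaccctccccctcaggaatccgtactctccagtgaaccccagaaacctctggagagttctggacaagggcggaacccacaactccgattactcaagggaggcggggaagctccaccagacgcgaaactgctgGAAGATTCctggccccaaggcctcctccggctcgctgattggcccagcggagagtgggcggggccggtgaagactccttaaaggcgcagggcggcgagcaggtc
Hspa1b: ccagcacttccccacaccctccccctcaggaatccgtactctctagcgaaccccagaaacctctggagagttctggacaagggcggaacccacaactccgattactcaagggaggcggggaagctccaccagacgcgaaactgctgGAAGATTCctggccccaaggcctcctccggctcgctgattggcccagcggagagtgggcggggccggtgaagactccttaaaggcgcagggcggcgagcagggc
Hspe1: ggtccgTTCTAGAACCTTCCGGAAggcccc
Hsph1: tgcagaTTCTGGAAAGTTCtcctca
The upstream sequences of Hspa1a and Hspa1b differ at 3 of 250 bases, and both carry an inverted pair whose first base lies at position -104 from the start site. The Hspe1 stretch is chr1:55088053-55088082 on the plus strand, from -95 to -66, inside an annotated 5′ UTR exon of Hspd1, which is transcribed the other way. The Hsph1 stretch is chr5:149636282-149636306 on the minus strand, from +10 to +34 of a Hsph1 start site, in its own first exon. Of all 32851 promoter windows, 7.86% hold the pair GAANNTTC and 8.52% the pair TTCNNGAA, which read the same on both strands. A 3-unit element, either pair extended by NN and a further inverted unit so that both pairs overlap in it, is held by 0.603%. This longer element was in the windows of Hspe1, Hspd1 (the same shared stretch) and Hsph1. The Dnajb1 window holds none of these letters, and windows for Hspa8, Hsp90aa1, Hsp90ab1 and Hsf1 were not used here.

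Library totals ran from 17.7 M to 54.1 M counted reads. Replicates correlated at r between 0.987 and 0.998 across genes, the lowest value belonging to replicates 1 and 2 of IgG1 PC. B cell markers summed to between 3771 and 9617 CPM (counts scaled to the same library total) in the libraries, T cell markers to at most 5.73 and myeloid markers to at most 8.60, while plasma cell markers summed to between 9102 and 18766 CPM in both PC groups and to between 370.5 and 740.9 elsewhere. The labels do not spell out PC or iGC. Fibroblast markers, which the feeder layer would bring, summed to 227, 363 and 369 CPM in D6 and to between 29.8 and 71.1 in the iGC groups. They summed to between 22.3 and 37.1 CPM in IgE PC and to 198, 67.3 and 196 in IgG1 PC, and Postn was at 0 in every group but IgG1 PC. In the PC groups immunoglobulin transcripts made up 20.4% ± 0.949 (SD, n = 3) of IgE library counts and 17.7% ± 3.51 of IgG1 library counts, against means between 1.42 and 1.61% in the other groups. CPM are therefore given after scaling by trimmed means (TMM), which sets the bulk of genes level. Scaling by total counts instead would move the median gene from -0.05 to -0.30 (log2) between IgE PC and IgG1 PC, from -0.08 to -0.55 between IgE PC and IgE iGC, and from 0.01 to -0.22 between IgG1 PC and IgG1 iGC. The genes called higher and lower would go from 4303 and 4815 to 2273 and 7264, from 4787 and 5271 to 2651 and 8743, and from 4720 and 4554 to 3226 and 6840 in these comparisons. Against D6, calls for IgE PC would go from 5789 and 6190 to 3311 and 9031, and calls for IgG1 PC from 5633 and 5644 to 3964 and 7369.

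At day 6 the levels of the heat shock genes spanned a wide range. By length-corrected level, in TPM (transcripts scaled to the same library total), Hspa8 averaged 5521 in D6, the 13th highest of 25486 genes detected, followed by Hsp90ab1 at 3499 (rank 30), Hsp90aa1 at 2074 (rank 81), Hspd1 at 671, Hspe1 at 598, Hsph1 at 448, Dnajb1 at 106 (rank 1424), Hspa1 at 72.5 (rank 2162) and Hsf1 at 28.5 (rank 4895). No neighbours in that order overlapped over the 3 D6 libraries. Together the genes took 1.60% ± 0.0135 (SD, n = 3) of the D6 counts. At day 8 they took 0.469% ± 0.00752 of counts in IgE iGC libraries, 0.484% ± 0.00813 in IgG1 iGC libraries, 0.336% ± 0.0289 in IgG1 PC libraries and 0.189% ± 0.00786 in IgE PC libraries. The order of levels changed at day 8. In IgE iGC the TPM of Hsp90ab1 (1450 to 1488) and Hspa8 (1296 to 1509) overlapped, as did those of Dnajb1 and Hsf1, and Hspe1 stood above Hspd1 in all 4 day 8 groups. In IgE PC, Hsph1, Dnajb1 and Hsf1 all lay between 15.5 and 17.9 TPM, and Dnajb1 overlapped both others. Hspa1 fell from rank 2162 of the genes in D6 to ranks between 12391 and 13008 at day 8.

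**Figure D1:**
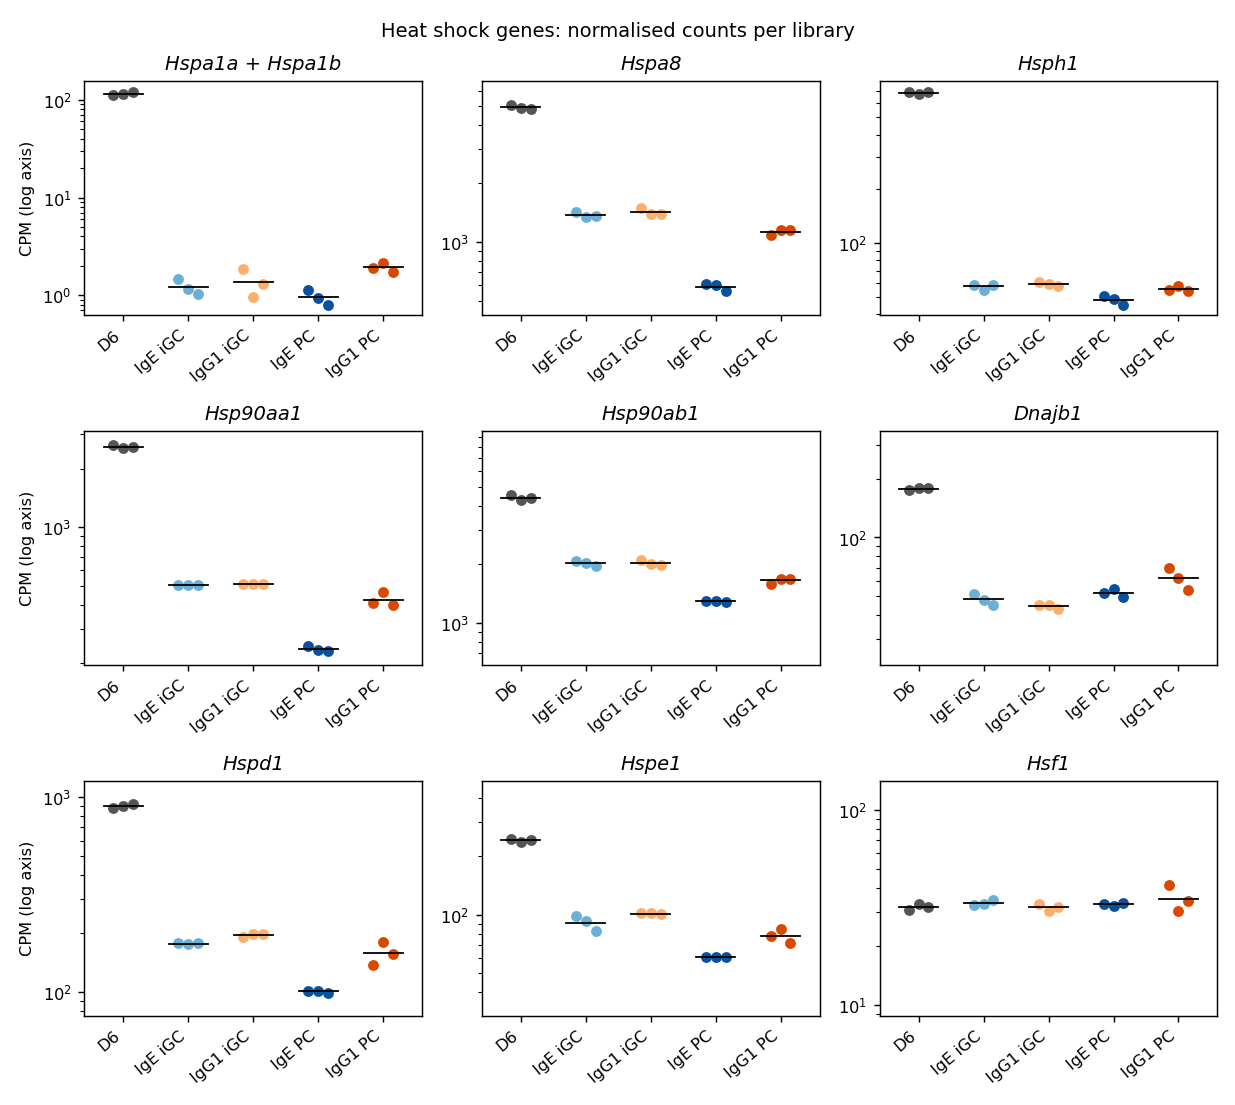
Normalised counts (CPM after TMM scaling, log axis with its own range in each panel) of the 9 rows, with 1 point per library and a bar at the mean of 3; Hspa1a and Hspa1b are summed. In 8 panels every D6 point lies above every day 8 point, from about 113 to 121 against 0.80 to 2.16 CPM for Hspa1, while Hsf1 stays between 30.2 and 41.1 CPM in all libraries.

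Between day 6 and day 8 the heat shock genes fell, Hspa1 by far the most and Hsf1, with TMM scaling, not detectably. In IgE iGC, Hspa1 fell 91.9-fold and Hsph1 12.04-fold, Hsp90aa1, Hspd1, Dnajb1 and Hspa8 fell severalfold, Hspe1 and Hsp90ab1 fell the least, and the IgG1 iGC values were close to these. The 4 comparisons share the D6 libraries, so they are not independent of each other. In each of them 8 of the 9 rows were lower (edgeR quasi-likelihood test, Benjamini-Hochberg adjusted p under 0.05). All genes tested were called lower at a rate of 36.3% in IgE iGC, 36% in IgG1 iGC, 39.4% in IgE PC and 36% in IgG1 PC. The median log2 change of the 9 rows was -1.89, -2.00, -3.06 and -2.12 in that order, against medians between -0.04 and 0.01 for all 15691 genes tested. In bulk RNA, fewer cells that express a gene and less of its RNA per cell cannot be told apart.

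Hspa1, the stress-inducible HSP70, showed the widest gap. It measured 113, 114 and 121 CPM in the D6 libraries, 1.46, 1.17 and 1.03 in IgE iGC, and 1.84, 0.966 and 1.304 in IgG1 iGC. In the PC groups it measured 1.13, 0.947 and 0.802 CPM in IgE and 1.92, 2.16 and 1.73 in IgG1. The D6 libraries stood far above all 12 others and the day 8 groups lay close together. The log2 change from D6 was -6.52 ± 0.16 (SE; adjusted p 1.6e-13) in IgE iGC, or 91.9-fold, -6.39 ± 0.15 in IgG1 iGC, -6.90 ± 0.16 in IgE PC and -5.89 ± 0.15 in IgG1 PC. Counted from the lowest log2 change of all 15691 genes tested, Hspa1 ranked 32nd, 50th, 75th and 30th in these comparisons. The day 8 values rest on expected counts of 19.8 to 112 per library, while D6 held 4767 to 4975. They also depend on how reads were assigned: Hspa1l, Gm20481 and the antisense transcript Gm10501 share 76-base stretches with Hspa1, and held 1.00% of the joint count in replicate 1 of D6 but 70.0% in replicate 3 of IgE iGC. With those counts added, a choice made after seeing the data, the log2 changes from D6 were -5.24, -5.10, -5.47 and -4.88.

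Hsph1, the HSP110 exchange factor of HSP70, was second. It measured 695, 673 and 695 CPM in D6, against 58.2, 54.7 and 58.5 in IgE iGC and 60.1, 59.0 and 57.6 in IgG1 iGC. Levels were 50.4, 48.9 and 45.2 in IgE PC and 54.8, 57.5 and 54.1 in IgG1 PC. The gap to D6 was many times the spread within groups, and the 4 day 8 groups spanned 45.2 to 60.1 CPM. The log2 change was -3.59 ± 0.06 in IgE iGC (12.04-fold, adjusted p 3.0e-15), -3.55 ± 0.06 in IgG1 iGC, -3.84 ± 0.06 in IgE PC and -3.63 ± 0.06 in IgG1 PC. Hsph1 shares no 76-base stretch with another gene.

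Hspa8, the constitutive HSP70 that folds new proteins and uncoats clathrin, fell less. It measured 5031, 4877 and 4852 CPM in D6, 1423, 1346 and 1357 in IgE iGC, and 1502, 1398 and 1399 in IgG1 iGC. In the PC groups it measured 606, 599 and 561 CPM in IgE and 1086, 1147 and 1151 in IgG1. The groups form 3 steps below D6 with no overlap between them: iGC, then IgG1 PC, then IgE PC. The log2 change from D6 was -1.84 ± 0.06 in IgE iGC, -1.78 ± 0.06 in IgG1 iGC, -3.06 ± 0.06 in IgE PC and -2.12 ± 0.06 in IgG1 PC. Copies of Hspa8 elsewhere in the genome, above all the processed pseudogene Gm15459, held 2.79 to 7.37% of the joint count, so its level is a little uncertain.

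The 2 cytosolic HSP90 genes both fell, the inducible Hsp90aa1 more than the constitutive Hsp90ab1. Hsp90aa1 measured 2635, 2557 and 2585 CPM in D6, 506, 501 and 502 in IgE iGC, and 508, 512 and 513 in IgG1 iGC. In the PC groups it measured 245, 235 and 230 CPM in IgE and 405, 464 and 399 in IgG1. Replicates were tight in every group but IgG1 PC, where replicate 2 was highest. Its log2 change from D6 was -2.37 ± 0.06 in IgE iGC, -2.34 ± 0.06 in IgG1 iGC, -3.45 ± 0.06 in IgE PC and -2.62 ± 0.06 in IgG1 PC. Hsp90ab1 ranged from 4252 to 4536 CPM in D6, from 1965 to 2099 over both iGC groups, from 1583 to 1683 in IgG1 PC and from 1282 to 1299 in IgE PC. Its log2 change was -1.12 ± 0.05 in IgE iGC, -1.11 ± 0.05 in IgG1 iGC, -1.77 ± 0.05 in IgE PC and -1.41 ± 0.05 in IgG1 PC, among the smallest of the falls in every group.

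Dnajb1, the J protein that works with inducible HSP70, fell to a level that, with TMM scaling, was no lower in the PC groups than in the iGC groups. It measured 176, 179 and 179 CPM in D6, 51.3, 47.8 and 45.0 in IgE iGC, and 45.2, 45.0 and 43.1 in IgG1 iGC. In the PC groups it measured 52.1, 54.2 and 49.7 CPM in IgE and 69.9, 61.6 and 53.8 in IgG1. All 12 day 8 libraries lay below D6, and the highest among them were IgG1 PC. The log2 change from D6 was -1.89 ± 0.08 in IgE iGC, -2.00 ± 0.08 in IgG1 iGC, -1.78 ± 0.08 in IgE PC and -1.53 ± 0.08 in IgG1 PC.

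The mitochondrial chaperonin genes Hspd1 and Hspe1, which lie head to head on chromosome 1 and overlap by a short stretch, fell by different amounts. Hspd1 measured 881, 905 and 923 CPM in D6, 178, 176 and 178 in IgE iGC, and 191, 199 and 199 in IgG1 iGC. In the PC groups it measured 102, 101 and 99.1 CPM in IgE and 138, 181 and 156 in IgG1. Its log2 change from D6 was -2.35 ± 0.08 in IgE iGC, -2.20 ± 0.08 in IgG1 iGC, -3.17 ± 0.08 in IgE PC and -2.51 ± 0.08 in IgG1 PC. Hspe1 ranged from 236 to 244 CPM in D6, from 82.9 to 102 over the iGC groups, from 71.3 to 84.7 in IgG1 PC and from 60.4 to 61.0 in IgE PC, with log2 changes of -1.40 ± 0.07 in IgE iGC, -1.25 ± 0.07 in IgG1 iGC, -1.63 ± 0.07 in IgG1 PC and -1.99 ± 0.07 in IgE PC. The overlap covers 37 stretches of 76 bases on opposite strands, and the sources used here do not say whether counting used the strand.

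Hsf1, the transcription factor of the heat shock response, did not change detectably in transcript level with TMM scaling. It measured 30.6, 32.8 and 32.0 CPM in D6, 32.6, 33.0 and 34.7 in IgE iGC, 32.8, 30.4 and 31.7 in IgG1 iGC, 33.1, 32.1 and 33.5 in IgE PC, and 41.1, 30.2 and 34.3 in IgG1 PC. Every group overlapped D6 in CPM. The log2 change from D6 was 0.07 ± 0.08 (adjusted p 0.48) in IgE iGC, -0.01 ± 0.08 in IgG1 iGC, 0.05 ± 0.08 in IgE PC and 0.14 ± 0.08 in IgG1 PC, none past the threshold. It passed in IgE iGC at 0.12 (adjusted p 0.047) with only the groups compared in the fit, and in IgG1 PC at 0.25 (adjusted p 0.0042) without replicate 2 of IgG1 PC. Scaled by total counts, which moves the median gene by -0.57 in IgE PC and -0.27 in IgG1 PC, the values were -0.49 (adjusted p 1.4e-05) and -0.15. RNA level says nothing of Hsf1 protein or its activation. Hsf2, which pairs with Hsf1, was lower in all 4 comparisons, by -0.47 ± 0.14 in IgE iGC and -0.61 ± 0.14 in IgG1 PC. Hsf4 was below 1 CPM in all libraries.

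**Figure D2:**
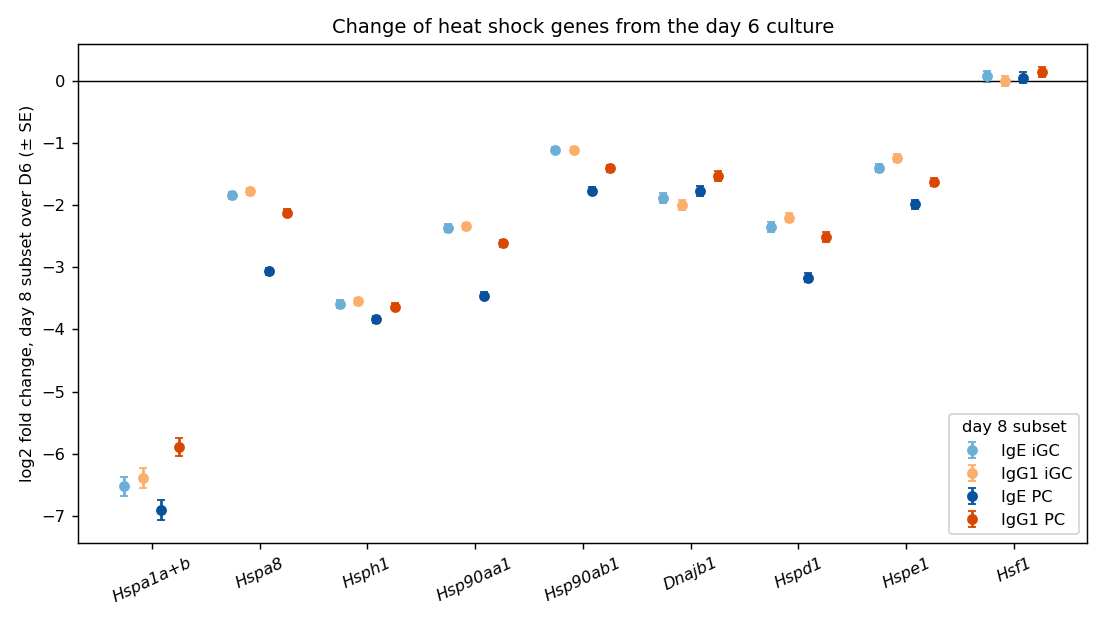
Log2 fold change (edgeR) of each heat shock gene row in the 4 day 8 groups over D6, with bars of 1 SE. Hspa1 lies lowest, from -5.89 to -6.90, Hsph1 next near -3.6 to -3.8, and Hsf1 lies between -0.01 and 0.14.

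Feeder markers moved with this contrast in the iGC groups and in IgE PC. In each of these, 8 of the 9 fibroblast markers tested were lower than in D6, and in IgG1 PC 4 were. Of all genes tested, 36.3% were called lower in IgE iGC, 36% in IgG1 iGC, 39.4% in IgE PC and 36% in IgG1 PC. The small heat shock proteins, chaperones that hold unfolding proteins and are abundant in muscle, moved the same way: Cryab averaged 31.9 CPM in D6 and 1.98 in IgE iGC, and Hspb8 averaged 20.8 and 1.44. Feeder RNA as a part of the D6 level of the heat shock genes was not tested.

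Immediate early genes, which cell handling and mitogen signals can switch on, moved the other way. Their sum was 401 to 429 CPM in D6, 825 to 945 in IgE iGC, 691 to 799 in IgG1 iGC, 1108 to 1460 in IgE PC and 1207 to 1789 in IgG1 PC. Of 10 genes tested in IgE iGC against D6, 7 were higher and 1 lower, where 32.8% of all genes were called higher and 36.3% lower. Fos, a component of AP-1, rose by 3.08 ± 0.38 (log2), while the stress-induced Atf3 was the gene that fell, by -4.32 ± 0.28. Their part in the result was not tested.

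Among the iGC cells, the isotype made no detectable difference to the heat shock genes. None of the 9 rows passed the threshold between IgE iGC and IgG1 iGC by edgeR, against 3.87% of all genes tested. By unadjusted p only Hspe1, at -0.15 ± 0.07 (p 0.036), was under 0.05. The log2 differences ran from -0.15 for Hspe1 to 0.11 for Dnajb1, with SEs between 0.05 and 0.08 for all rows but Hspa1 (0.20). With only these groups in the fit, Hspd1 passed at -0.15 (adjusted p 0.017). DESeq2 called none of the rows.

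Cells of the PC groups differed by isotype: IgE PC held less of 8 of the 9 rows than IgG1 PC. All genes tested were called lower at a rate of 30.7%. Hspa1 was lower by -1.003 ± 0.20 (adjusted p 0.00056), Hspa8 by -0.94 ± 0.05 (adjusted p 2.4e-09), Hsp90aa1 by -0.84 ± 0.06 and Hspd1 by -0.65 ± 0.07. Hspe1, Hsp90ab1 and Hsph1 were lower by -0.36 ± 0.07, -0.35 ± 0.05 and -0.20 ± 0.05. In these 7 rows every IgE PC library lay below every IgG1 PC library. Dnajb1 was lower by -0.25 ± 0.08 with overlapping libraries, and its adjusted p of 0.013 became 0.050 without replicate 1 of IgG1 PC, 0.074 without replicate 3 of IgE PC and 0.059 with only these groups in the fit. With the counts of the related genes added, Hspa1 differed by -0.59. Hsf1, at -0.09 ± 0.08, did not pass. It was called at -0.34 (adjusted p 0.00078) with total-count scaling, at -0.29 (0.0061) with totals that leave out immunoglobulin genes and at -0.19 (0.033) without replicate 2 of IgG1 PC, and was 0.03 without replicate 1. All 9 fibroblast markers tested were lower in IgE PC as well, and their sum was 198, 67.3 and 196 CPM over the IgG1 PC replicates. Their part in the result was not tested. Without replicate 1 of IgG1 PC, the library least like its group, 7 rows were called, where 9355 of all 16089 genes tested were.

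Most of the heat shock genes were lower in PC than in iGC cells in both isotypes, by more in IgE. Both were sorted at day 8, so the step from iGC to PC is a comparison of populations, not a change followed over time. In IgE cells 6 of the 9 rows were lower in PC than in iGC, where 33.6% of all genes were: Hspa8 by -1.22 ± 0.05, Hsp90aa1 by -1.09 ± 0.06, Hspd1 by -0.82 ± 0.07, Hsp90ab1 by -0.65 ± 0.05, Hspe1 by -0.59 ± 0.07 and Hsph1 by -0.24 ± 0.05. Hspa1 (-0.38 ± 0.22), Dnajb1 (0.11 ± 0.08) and Hsf1 (-0.02 ± 0.09) did not pass. In IgG1 cells 5 rows were lower, where 29% of all genes were: Hspe1 by -0.38 ± 0.07, Hspa8 by -0.34 ± 0.05, Hspd1 by -0.31 ± 0.07, Hsp90ab1 by -0.30 ± 0.05 and Hsp90aa1 by -0.27 ± 0.06. Dnajb1 was higher in IgG1 PC by 0.47 ± 0.08 (adjusted p 9.2e-05) and Hspa1 by 0.49 ± 0.18 (adjusted p 0.030), where 30.1% of all genes were called higher. The Hspa1 libraries of these groups overlapped. In TPM neither mean was higher in IgG1 PC: Dnajb1 averaged 22.1 against 24.2 in IgG1 iGC, and Hspa1 averaged 0.73 against 0.78. With total-count scaling Dnajb1 was higher by 0.23. Of the marker lists, 8 of 9 fibroblast markers (median 1.84), all 10 immediate early genes (median 1.07) and all 4 small heat shock proteins tested (median 2.20) were also higher in IgG1 PC than in IgG1 iGC, and their part in these rises was not tested. The adjusted p of Hspa1 was 0.16 without replicate 2 of IgG1 iGC, 0.085 without replicate 3 of IgG1 iGC, 0.12 without replicate 2 of IgG1 PC, 0.15 with only these groups in the fit, 0.21 with total-count scaling, 0.25 for Hspa1b alone and 0.11 with the counts of the related genes added. Hsf1 was called higher in IgG1 PC at 0.23 (adjusted p 0.0093) without replicate 2 of IgG1 PC. With total counts all 9 rows were called lower in IgE PC than in IgE iGC, but so were 8743 of all 15691 genes. The median gene then lay at -0.55. Dnajb1 was lower by -0.36 (adjusted p 0.00024), Hspa1 by -0.84 (0.0034) and Hsf1 by -0.49 (1.6e-05). In IgG1 PC, Hsph1 was then lower by -0.32 (0.00048), where 6840 genes were called lower and the median gene lay at -0.22.

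**Figure D3:**
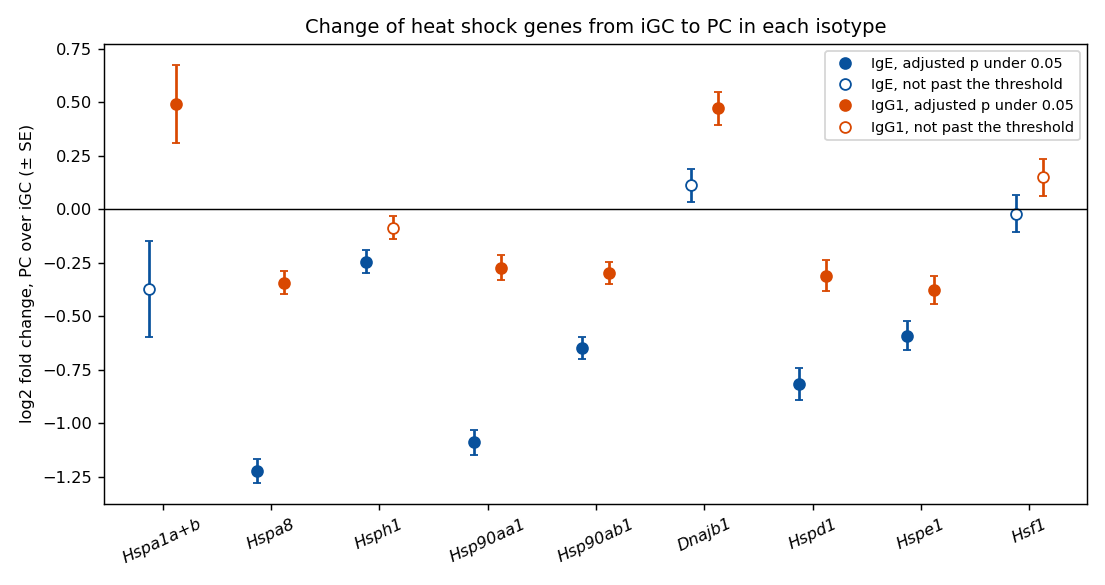
Log2 fold change of each row from iGC to PC in IgE cells (blue) and IgG1 cells (orange), with bars of 1 SE; filled points passed an adjusted p of 0.05. Hspa8 and Hsp90aa1 fell by 1.22 and 1.09 in IgE cells but by 0.34 and 0.27 in IgG1 cells, and only Dnajb1 and Hspa1 lie above the zero line among the filled points.

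The difference between the isotypes in this step was tested as an interaction, PC minus iGC in IgE cells less the same in IgG1 cells. It was negative and past the threshold for 6 of the 9 rows, against 23.1% of all genes, while 19.8% were positive (3101 positive and 3632 negative calls, or 1542 and 5603 with total-count scaling): Hspa8 at -0.88 ± 0.08 (adjusted p 5.9e-07), Hspa1 at -0.87 ± 0.29 (0.024), Hsp90aa1 at -0.82 ± 0.08 (2.0e-06), Hspd1 at -0.51 ± 0.10, Dnajb1 at -0.36 ± 0.11 (0.015) and Hsp90ab1 at -0.35 ± 0.07. Hspe1 at -0.21 ± 0.09 (adjusted p 0.081), Hsph1 at -0.16 ± 0.07 (0.10) and Hsf1 at -0.17 ± 0.12 (0.28) did not pass. With total-count scaling, which moves the median gene of the interaction from -0.06 to -0.30, these passed as well, at -0.45 (adjusted p 0.0019), -0.39 (0.0026) and -0.40 (0.0045), so that all 9 rows were called. Hspe1 also passed without replicate 3 of IgE iGC (0.023) or of IgG1 PC (0.024), and Hsf1 without replicate 2 of IgG1 PC (0.030). The interaction was negative for all 9 fibroblast markers tested (median -2.82), and their part in it was not tested. The Hspa1 value was -0.45 with the counts of the related genes added, -1.94 for Hspa1a alone and -0.51 for Hspa1b alone (adjusted p 0.30). The adjusted p of Hspa1 rose to 0.10 without replicate 1 of IgE iGC, 0.050 without replicate 2 of IgE PC, 0.074 without replicate 3 of IgE PC, 0.051 without replicate 3 of IgG1 iGC and 0.072 with only these groups in the fit, and that of Dnajb1 to 0.058 without replicate 3 of IgE PC. Since the iGC groups did not differ detectably, these values repeat much of the contrast between the PC groups, with which they share libraries.

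Ratios between partner genes within a library do not depend on scaling, and they show that paired genes did not fall together. Hsp90aa1 counts were 58.1, 60.1 and 59.2% of Hsp90ab1 counts in D6, 24.4, 24.6 and 25.5% in IgE iGC, 24.2, 25.6 and 25.8% in IgG1 iGC, 19.0, 18.1 and 17.9% in IgE PC, and 25.6, 27.6 and 23.7% in IgG1 PC. D6 stood above all day 8 libraries and IgE PC below all others. Hspa1 counts were 2.36% ± 0.126 (SD, n = 3) of Hspa8 counts in D6, 0.0879% ± 0.0135 in IgE iGC, 0.0951% ± 0.0265 in IgG1 iGC, 0.162% ± 0.0225 in IgE PC and 0.171% ± 0.0199 in IgG1 PC. This ratio was thus higher in both PC groups than in the iGC groups, with no overlap. Hspd1 counts were 375% ± 12.01 of Hspe1 counts in D6, 195% ± 17.3 in IgE iGC, 193% ± 5.77 in IgG1 iGC, 166% ± 1.62 in IgE PC and 203% ± 23.4 in IgG1 PC. For each pair of groups whose libraries did not overlap, the exact two-sided permutation test gave 0.1, the smallest p that 3 against 3 libraries allow, or 0.133 adjusted over 24 comparisons, so these ratios cannot pass 0.05. In length-corrected TPM the Hsp90aa1 to Hsp90ab1 ratio of IgG1 PC was 36.5% rather than 25.6%, above both iGC groups.

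**Figure D4:**
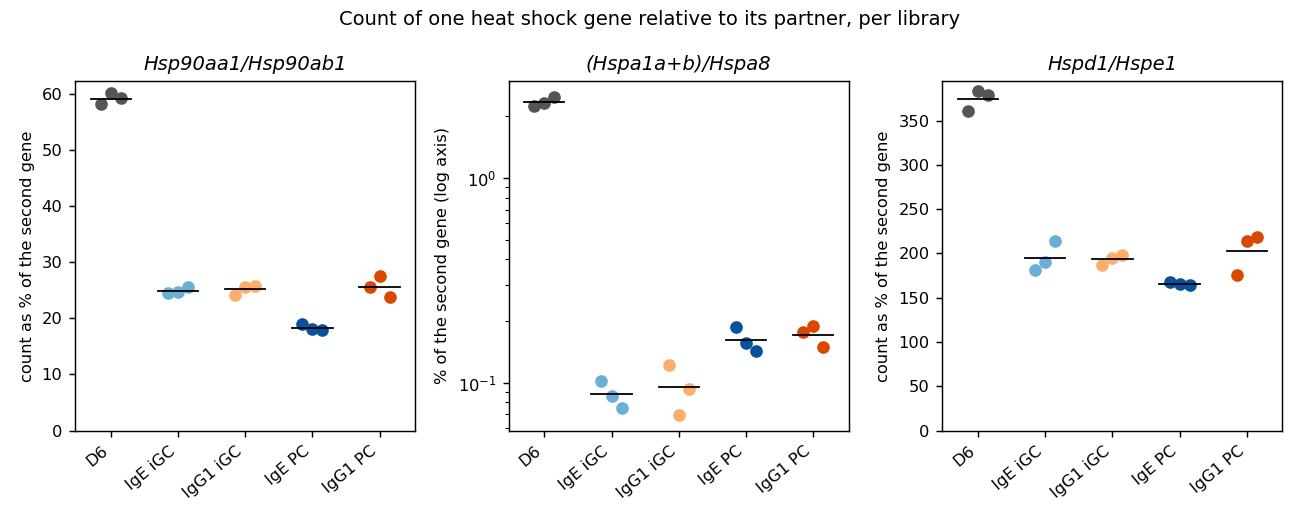
Counts of Hsp90aa1, Hspa1 and Hspd1 as a percentage of Hsp90ab1, Hspa8 and Hspe1 in the same library; points are libraries, bars are means of 3, and the middle panel has a log axis. D6 is highest in all 3 panels, and IgE PC is lowest in the outer panels with means of 18.3 and 166%.

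The lists that follow were written with earlier results of these data known, and are described by counts and medians. Other cytosolic chaperones were mostly lower in IgE iGC than in D6, a comparison in which 36.3% of all genes tested were called lower and 32.8% higher. Of 12 HSP90 co-chaperones tested, 8 were lower and 2 higher, with a median of -1.39; Cacybp (-1.73 ± 0.07) and the HSP70 to HSP90 adaptor Stip1 (-1.70 ± 0.05) fell most, while the kinase-loading Cdc37 rose by 0.16 ± 0.06. Of 14 subunits of the TRiC chaperonin and prefoldin, which fold actin and tubulin, 12 were lower and 1 higher, with a median of -0.59 and Cct6a lowest at -1.54 ± 0.05. Of 6 nucleotide exchange factors 5 were lower and none higher, led by Bag3, a stress-inducible BAG protein, at -3.95 ± 0.26. Of 9 further J proteins 6 were lower and 1 higher: Dnaja1 fell by -2.56 ± 0.06, from 868.5 to 148 CPM, while Dnajc7 rose by 0.77 ± 0.06. Of 5 further HSP70 and HSP110 genes 3 were lower and 1 higher, Hspa4l falling by -2.87 ± 0.13. Of 9 further mitochondrial chaperones and proteases 6 were lower and 2 higher, with a median of -0.23. Hspa9, the mitochondrial HSP70, fell by -1.92 ± 0.06, and Hscb, a J protein for iron-sulphur clusters, rose by 1.53 ± 0.08.

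The chaperones of the endoplasmic reticulum (ER), which answer to the unfolded protein response rather than to Hsf1, parted from the cytosolic genes at the PC step. All 6 ER counterparts tested were lower in IgE iGC than in D6, where 36.3% of all genes were, with a median of -0.86. All 6 were higher in PC than in iGC (30.5% of all genes in IgE cells and 30.1% in IgG1 cells), with a median of 4.03 in IgE cells and 2.64 in IgG1 cells, where the 9 heat shock rows had medians of -0.59 and -0.27. Hsp90b1, the ER form of HSP90, averaged 532 CPM in IgG1 iGC, 621 in IgE iGC, 6287 in IgG1 PC and 13071 in IgE PC. Its rise in IgE cells was 4.40 ± 0.12, against -1.09 ± 0.06 for Hsp90aa1. Hspa5, the ER form of HSP70, averaged 493 CPM in IgE iGC and 6957 in IgE PC, while Hspa8 averaged 1375 and 589. Between IgE PC and IgG1 PC all 6 ER genes were higher in IgE, with a median of 1.36, where 27.4% of all genes were called higher. The interaction was positive for all 6, with a median of 1.18, where 19.8% of all genes were called positive. IgE PC thus had the lowest mean CPM of 7 heat shock rows and the highest of the ER genes named here.

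**Figure D5:**
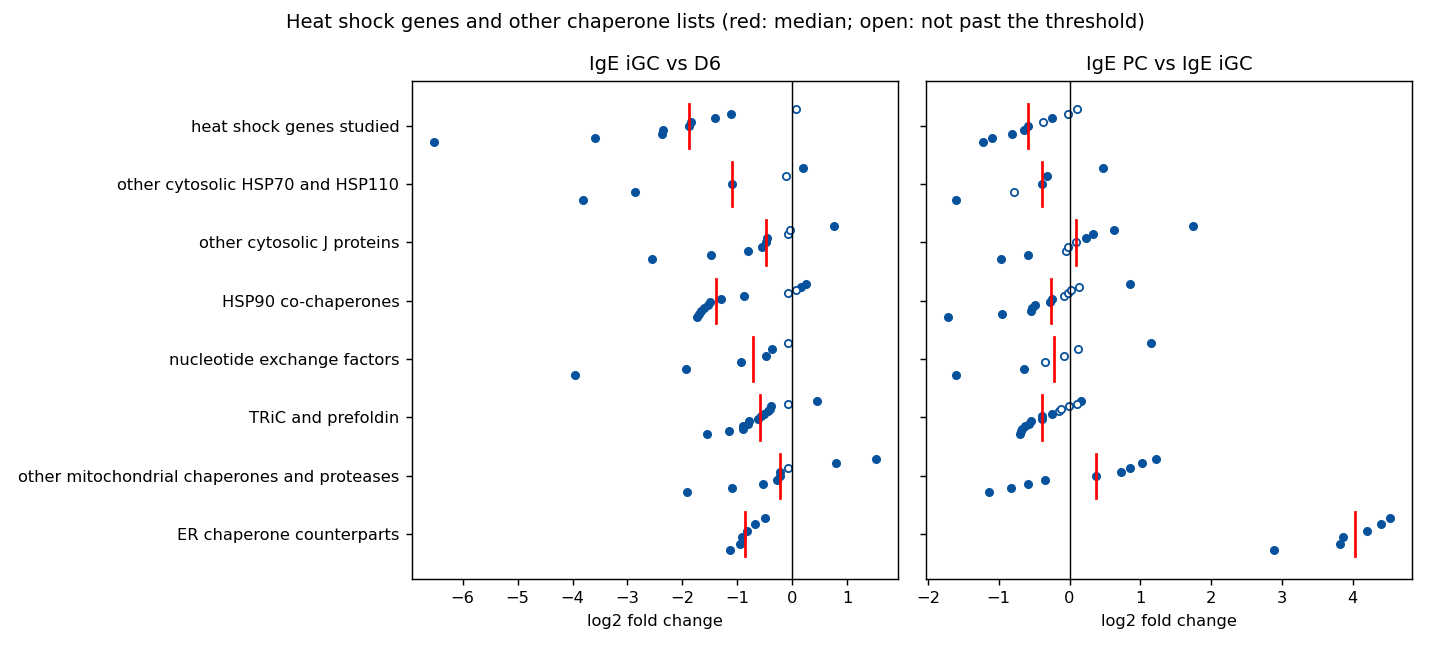
Log2 fold changes of the heat shock genes and 7 lists of other chaperones from D6 to IgE iGC (left) and from IgE iGC to IgE PC (right); filled points passed an adjusted p of 0.05, open points did not, and red bars are medians. At left every list has a median below 0, and at right the ER counterparts stand apart with a median of 4.03.

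Further cytosolic chaperones at the PC step were mixed. In IgE cells, where 30.5% of all genes were called higher and 33.6% lower, 7 of 12 HSP90 co-chaperones were lower and 1 higher: Fkbp5, an immunophilin of steroid receptor complexes, fell by -1.71 ± 0.10 and Ptges3 (p23) rose by 0.85 ± 0.09. TRiC and prefoldin had 9 of 14 lower and 1 higher, with a median of -0.39. Other J proteins had 4 of 9 higher and 2 lower, Dnajb2 rising by 1.75 ± 0.10 and Dnajc2 falling by -0.97 ± 0.05. Of 6 exchange factors 1 was higher and 2 lower, with a median of -0.22: Bag5 rose by 1.15 ± 0.07 and Hspbp1 fell by -0.64 ± 0.09. In IgG1 cells, where 30.1% of all genes were called higher and 29% lower, 5 of 12 co-chaperones were lower and 3 higher, TRiC and prefoldin had 9 of 14 lower and 3 higher, and the other J proteins had 3 of 9 lower and 1 higher. There Ppid, an HSP90-bound cyclophilin, fell by -0.81 ± 0.09 and Dnajb2 rose by 0.95 ± 0.10. The 9 further mitochondrial chaperones and proteases went both ways. In the IgE step 5 were higher and 4 lower (median 0.37), and in the IgG1 step 3 and 2. Between IgE PC and IgG1 PC 5 were higher and 4 lower (median 0.23), where 27.4% of all genes were called higher and 30.7% lower. Hspa9 was higher there by 0.66 ± 0.06 and Trap1 lower by -0.58 ± 0.05, while Hspd1 and Hspe1 were both lower.

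The genes whose profile over all 15 libraries was most like that of a heat shock gene were sought among 8233 genes. Since D6 stands apart from the day 8 groups, any gene that fell as steeply scores high, and r is a description only. Hspa1 was closest to Zwint (r = 0.995), Cct3 (0.994), Hsph1 (0.992), Utp20 (0.992) and Ahsa1 (0.992), of which Cct3 is a TRiC subunit and Ahsa1 the activator of the HSP90 ATPase. Hsp90aa1 was closest to Hspd1 (0.997), Heatr3 (0.996), St13 (0.996), Dgcr8 (0.995) and Fkbp1a (0.995). For Hspd1 the closest were Heatr3 (0.998), Hsp90aa1 (0.997), Pum3 (0.995), Cdk6 (0.995) and St13 (0.995). Hsf1, which varied little, had no gene above 0.802 (Dpm2), followed by Stub1 (0.793), which encodes the chaperone-linked ubiquitin ligase CHIP.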

How the data were processed

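Libraries of polyA RNA were made with a strand-specific kit and sequenced as single-end reads of 76 bases, per the labels' protocols. The deposited table holds RSEM expected counts and TPM per gene, per the file headers; cutadapt 1.9.1, STAR 2.5.2a, RSEM 1.3.0, DESeq2 1.12.3 and build GRCm38 are named in the submitters' processing notes. Whether the deposited expected counts used the read strand is not given in the sources used here. TPM were used to order levels and as an alternative scale for the ratios. Symbols were found for 51633 of 51912 gene IDs.

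Expected counts of Hspa1a and Hspa1b were summed, all counts were rounded to whole numbers, and genes were kept with edgeR's filter (minimum count 10, total 15), leaving 15691. The main test was edgeR 4.0.16 (R 4.3.3), TMM scaling and the quasi-likelihood F test over all 15 libraries, with Benjamini-Hochberg adjustment over all genes and a threshold of 0.05. The fit of IgE PC against IgG1 PC was also run on simulated counts with few genes changed. The real data differ in far more genes, so that run does not test the choice of scaling. Alternatives were DESeq2 1.42.0, its size factors in edgeR, total-count scaling with and without immunoglobulin genes, no filter, a replicate block, separate Hspa1a and Hspa1b, only the groups compared, and leaving out each library. Ratios were tested by exact permutation (scipy 1.17.1).

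The genes, lists and alternatives were chosen with earlier results of these data known. Named genes are all 10 heat shock genes, up to 2 of each list with the largest rise and 2 with the largest fall per comparison among called genes with at least 10 CPM in a group, and the 5 genes most like Hspa1, Hsp90aa1, Hspd1 and Hsf1 in log2 CPM (prior count 2). The ER medians, Hspa5 in the PC step, and Cryab, Hspb8 and Hsf4 levels are given as descriptions outside or beside that rule. Shared stretches were counted in GENCODE transcripts (GRCm38), and promoters are from RefSeq (GRCm38.p6).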

Additional observations from a re-analysis of the deposited data

Results flagged for a closer look

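For IgE and IgG1 cells, the step from iGC to PC was of unlike size in 6 of the 9 heat shock rows, by the edgeR interaction test with Benjamini-Hochberg adjustment, where 23.1% of all genes were negative and past the threshold. The log2 difference between the isotypes was -0.88 for Hspa8, -0.87 for Hspa1, -0.82 for Hsp90aa1, -0.51 for Hspd1, -0.36 for Dnajb1 and -0.35 for Hsp90ab1. All are negative: the level in IgE cells fell further, or rose less, than in IgG1 cells. The Hspa1 value was -0.45 with the counts of related genes added, and its adjusted p was 0.30 for Hspa1b alone and 0.10 without replicate 1 of IgE iGC. For Dnajb1 and Hspa1 the change within IgE cells did not itself pass the threshold, and the rise in IgG1 cells did. With total-count scaling both fell in IgE cells, by -0.36 (adjusted p 0.00024) for Dnajb1 and -0.84 (0.0034) for Hspa1. That scaling put the median gene of the IgE step at -0.55. The rise of Hspa1 in IgG1 cells lost its call in 7 alternatives, among them total-count scaling (0.21), only the groups compared (0.15) and related counts added (0.11). In TPM the IgG1 PC mean lay below the IgG1 iGC mean for Dnajb1 (22.1 against 24.2) and for Hspa1 (0.73 against 0.78). The interaction was also negative for all 9 fibroblast markers tested. In IgG1 PC the fibroblast marker sum was 198, 67.3 and 196 CPM over the replicates, and its part in these differences was not tested.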

How the results depend on the processing

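Of 141 recomputed counts of called heat shock rows, 140 stayed within 1.5 times the main count. Where the main count was 6 or more of the 9 rows, no rise could pass that limit, so this is a weak check. The exception was IgE iGC against IgG1 iGC, where fitting only the groups compared called 1 row, Hspd1, in place of 0. Of 1446 recomputed values of single rows and ratios, 1381 kept their direction and side of the threshold, 17 lost the call, 20 gained it and 28 changed sign. Leaving out each library in turn gave 8 called rows in each iGC comparison with D6 and in IgE PC against D6, 8 to 9 in IgG1 PC against D6, 7 to 9 between the PC groups, 0 between the iGC groups, 6 from iGC to PC in IgE, 6 to 7 in IgG1, and 4 to 7 for the interaction. Of all 15990 to 16143 genes then tested, 10081 to 11690 were called against D6 and 8222 to 9355 between the PC groups. Between the iGC groups 323 to 403 were called, in the IgE step 9409 to 9695, in the IgG1 step 8325 to 9803, and for the interaction 5883 to 7419. With total-count scaling 9 rows were called between the PC groups, in the IgE step, for the interaction and in IgE PC against D6. Of 15691 genes tested, that scaling called 9537, 11394, 7145 and 12342 in these comparisons, against 9118, 10058, 6733 and 11979 with TMM scaling.

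Sign changes concerned values near 0 unless stated. Total-count scaling turned Dnajb1 from IgE iGC to IgE PC to -0.36, Hsf1 from IgG1 iGC to IgG1 PC to -0.090, and Hsf1 against D6 to -0.15 for IgG1 PC and -0.49 for IgE PC. Totals without immunoglobulin genes gave -0.052 for Dnajb1 from IgE iGC to IgE PC and -0.18 for Hsf1 in IgE PC against D6. These totals also changed the calls higher and lower among all genes to 2706 and 6813 between the PC groups, 3880 and 6494 in the IgE step, and 1884 and 5238 for the interaction. Hsp90ab1 between the iGC groups was 0.0033 by DESeq2 and 0.0032 with its size factors in edgeR. For Hspa1a alone the difference between the iGC groups was 0.14. Hsf1 from IgE iGC to IgE PC was 0.00040 by DESeq2 and 0.0015 with only the groups compared. Hsf1 in IgG1 iGC against D6 was 0.00015 with no filter and 0.054 with only the groups compared. The cause of these changes was not tested.

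Leaving out libraries moved Hsf1 over -0.19 to 0.031 between the PC groups, -0.040 to 0.0018 in the IgE step and -0.030 to 0.030 in IgG1 iGC against D6. Between the iGC groups, Hspa1 ranged from -0.34 to 0.15 and Hsp90ab1 from -0.022 to 0.021. The log2 ratio of Hsp90aa1 to Hsp90ab1 in the IgG1 step ranged from -0.032 to 0.076. That of Hspa1 to Hspa8 ranged from -0.19 to 0.0045 between the PC groups and from -0.29 to 0.11 between the iGC groups, and that of Hspd1 to Hspe1 from -0.060 to 0.062 between the iGC groups.

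Same-numbered libraries showed no sign of pairing: the mean correlation of same-numbered deviations ranged from -0.11 to 0.05 over the comparisons. The labels do not say whether a replicate number marks a shared animal or culture, and these correlations cannot settle it. With the replicate block, 8 rows were called in each comparison with D6, 8 between the PC groups, 0 between the iGC groups, 6 and 7 in the IgE and IgG1 steps, and 6 for the interaction, as without it. Of all 15691 genes the block called 10663 to 11927 against D6, 9004 between the PC groups and 580 between the iGC groups. It called 9951 and 9155 in the IgE and IgG1 steps and 6533 for the interaction.

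Depth limits Hspa1 at day 8 (19.8 to 112 counts per library). Groups of 3 libraries limit the ratio tests. The source of shared reads among Hspa1, Hspa8 and their copies cannot be resolved from gene counts.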
